A study of Mus musculus with 4 samples.

Results

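The 9 genes described here, Vwf, Thbd, Procr, Tfpi, Plat, F2r, F3, Pros1 and Anxa2, encode regulators of coagulation and fibrinolysis that endothelial cells can make, and are a set of genes listed by name and known role. Earlier results of these data were known when the set was drawn up, so no count over the set is read as a test of it. All 9 were among the 21578 genes listed in the deposited tables. Their RNA was measured in brain endothelial cells of C57BL/6 mice at postnatal day 0, in 2 libraries from Pd1fl/fl mice and 2 from Pd1cKO-Tie2 mice. Both genotypes carry floxed Pd1 alleles, Pdcd1 being the gene of the immune receptor PD-1, and Pd1cKO-Tie2 mice carry Tie2-Cre in addition. The Tie2 promoter is active in endothelial cells, and Tie2-Cre is also known to act in blood cell lineages, so the recombined cells need not be endothelial alone. The study purified the cells by flow cytometry, and its protocol for cortical endothelial cells uses CD31 and CD45 antibodies after lysis of red blood cells. How many animals gave 1 library, and their sex, are not given in the sources used here, so p-values measure only the spread between these 4 libraries, which may be technical.

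Endothelium keeps blood fluid while holding what is needed to seal a wound. Tissue factor, the product of F3, starts coagulation together with factor VII, and tissue factor pathway inhibitor, the product of Tfpi, blocks that start. Thrombin bound to thrombomodulin activates protein C instead of cleaving fibrinogen, the endothelial protein C receptor presents protein C to that complex, and protein S is a cofactor of activated protein C. Fibrin is dissolved by plasmin, which tissue plasminogen activator releases from plasminogen, a reaction that annexin A2 on the cell surface promotes. Von Willebrand factor, stored in Weibel-Palade bodies of endothelial cells, tethers platelets at sites of injury.

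The libraries held between 13714374 and 24146115 counted reads on listed genes, the deepest being Pd1cKO-Tie2 library 1. Levels are given as CPM, the reads of a gene scaled to the size of its library by the TMM method of edgeR. Where no read was counted, counting error allows a true level of up to 3 reads, or 0.125 to 0.219 CPM depending on the library. Such limits cover counting error only. Pdcd1 held 32 reads in Pd1fl/fl library 1 and was at 0 in both Pd1cKO-Tie2 libraries, but it was also not listed for Pd1fl/fl library 2, where it can hold at most 4 reads. This check of the labels therefore rested on 1 library. All 14 endothelial markers, Pecam1 and Cdh5 among them, were listed, and their summed level was 13696 and 12764 CPM in Pd1fl/fl against 16323 and 17278 CPM in Pd1cKO-Tie2. Each of the 14 was higher in either Pd1cKO-Tie2 library than in either Pd1fl/fl library, with a median log2 fold change of 0.32. The 8 microglia and macrophage markers, all lower on average in Pd1cKO-Tie2, summed to 1538 and 1984 CPM against 616 and 1365 CPM. Neutrophil markers summed to 906 CPM in Pd1fl/fl library 1 and to between 1.17 and 55.3 CPM in the other libraries. Pericyte and smooth muscle markers, the largest sum after the endothelial one, were at 5521 and 3567 CPM in Pd1fl/fl and 3674 and 3678 CPM in Pd1cKO-Tie2. Most of this sum was Rgs5 alone, at 4903.2 and 3212.5 CPM in Pd1fl/fl and 3253.1 and 3273.6 CPM in Pd1cKO-Tie2. Acta2, Tagln and Myh11 of the same list held between 0 and 40 reads a library, so the sum does not show much smooth muscle RNA. Radial glia and astrocyte markers summed to 1238 and 1251 CPM in Pd1fl/fl against 945 and 779 CPM in Pd1cKO-Tie2. Neuron markers summed to 844 to 1173 CPM. Levels are thus those of the sorted samples, not of endothelial cells alone. A gene is listed only where some library held reads, so a marker without reads can only be an unlisted one. Of the 10 marker lists examined, 8 were listed in full. Gkn3, of the 7 arterial and venous markers, and Slc22a6, of the 9 fibroblast and meninges markers, were not listed. In such bulk samples, fewer cells of a type and less RNA per cell cannot be told apart.

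**Figure D1:**
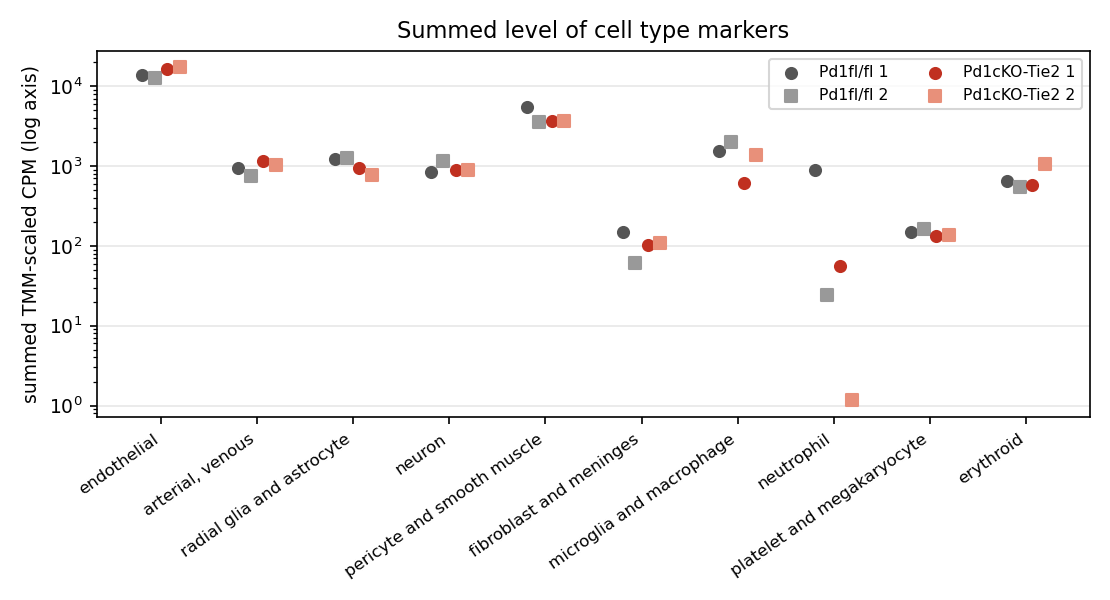
Summed level of each list of cell type markers in the 4 libraries, in TMM-scaled CPM on a log axis, with 1 point for each library. The endothelial sum runs from 12764 to 17278 CPM and is higher in both Pd1cKO-Tie2 libraries, while the neutrophil sum runs from 1.17 to 906 CPM.

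Of the 9 genes, 0 passed the study's criterion, a fold change of at least 2 with a p of 0.05 or less, against 4.02% of the 15909 genes tested with edgeR. The members' median log2 fold change was 0.10. At a p of 0.05 or less alone there were 3 of 9, Vwf, Procr and Plat, all higher in Pd1cKO-Tie2. Over all tested genes 6.39% reached that p, and 2.84% reached it with a higher level in Pd1cKO-Tie2. For these 3 genes the lower Pd1cKO-Tie2 library exceeded the higher Pd1fl/fl library, which was so for 17.8% of all tested genes. The reverse held for Tfpi and for 18.1% of all tested genes. For the other 5 genes the libraries of the genotypes overlapped. After adjustment over all tested genes, 0 of the 9 and 0 genes in all passed 0.05 in edgeR, and the smallest adjusted p of the members was 0.735. DESeq2 on the same genes called 0.729% of them at an adjusted p under 0.05, and 0 of the 9. The unadjusted edgeR p was 0.0156 for Vwf, 0.0222 for Procr and 0.0328 for Plat, from a fit that borrows its estimate of spread from all genes, whereas an exact two-sided permutation test of 2 libraries against 2 cannot go below 0.333.

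**Figure D2:**
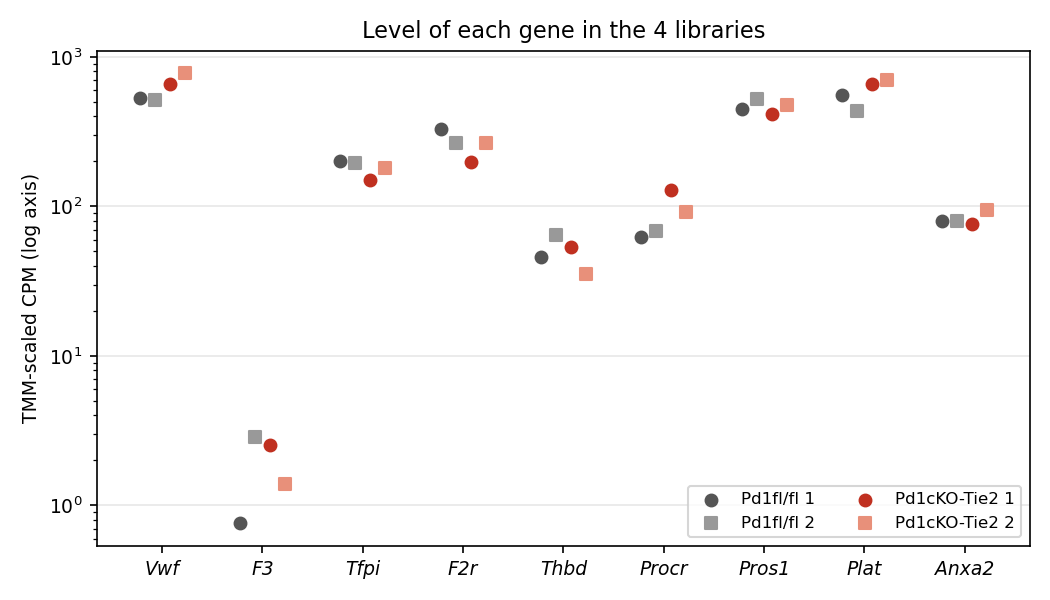
Level of each of the 9 genes in each of the 4 libraries, in TMM-scaled CPM on a log axis. Both Pd1cKO-Tie2 points lie above both Pd1fl/fl points for Vwf, Procr and Plat and below them for Tfpi, and F3 sits far under the other genes, between 0.761 and 2.88 CPM.

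The tables give the 9 genes on 7 autosomes, at positions equal to those of GENCODE M21 on the GRCm38 assembly. Vwf lies on chromosome 6 (125546774 to 125686679, plus strand), Thbd, a gene of 1 exon, on chromosome 2 (148404466 to 148408188, minus strand), Procr on chromosome 2 (155751117 to 155755471, plus strand) and Tfpi on chromosome 2 (84432855 to 84476775, minus strand). Plat lies on chromosome 8 (22757727 to 22782844, plus strand), F2r on chromosome 13 (95601803 to 95618487, minus strand), F3 on chromosome 3 (121723537 to 121735048, plus strand), Pros1 on chromosome 16 (62854307 to 62929346, plus strand) and Anxa2 on chromosome 9 (69453620 to 69491795, plus strand). The exons of Anxa2 share 98 bases with Gm16144 on the other strand, and whether the counting used strand is not given in the sources used here.

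Per kilobase of exon, and averaged over the 4 libraries, the levels ran from Pros1 at 113 CPM per kb through Plat at 94.0, F2r at 79.5, Procr at 43.3, Vwf at 38.6, Tfpi at 33.4, Anxa2 at 22.2 and Thbd at 13.4 to F3 at 0.75 CPM per kb. Each pair of neighbours from Pros1 down to Tfpi overlapped in the range over libraries. The ranges of Tfpi and Anxa2, of Anxa2 and Thbd, and of Thbd and F3 did not overlap, and the first of each pair was the higher in 4 of 4 libraries. On this length scale Pros1 and Plat thus led the order of means in these libraries, and F3 closed it. The length is that of all annotated exons of a gene merged, 16064 bases for Vwf and 6241 for Plat. Which transcripts the cells made was not tested, so the order need not be that of transcript numbers.

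A promoter window, from 250 bases before to 50 bases after the transcription start in RefSeq's GRCm38.p6 annotation, was found for 6 of the 9 genes, with 7 windows in all because Tfpi has 2. The letters TGACTCA or their reverse complement TGAGTCA, the site known for the AP-1 factors, occurred in the windows of Procr, F3, Anxa2 and F2r, which is 4 of the 7 windows, and in 5.2% of 32851 windows of that length. They are printed here because they are the feature that most of these windows hold and that few windows hold in general. The 41 bases around each match are given 5′ to 3′ on the strand of the gene, with the match in capitals.
Procr (chr2:155751046-155751086, plus strand): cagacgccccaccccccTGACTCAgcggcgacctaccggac
F3 (chr3:121723385-121723425, plus strand): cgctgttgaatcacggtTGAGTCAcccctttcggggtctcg
Anxa2 (chr9:69453571-69453611, plus strand): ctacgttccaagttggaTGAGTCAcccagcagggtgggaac
F2r (chr13:95618647-95618687, minus strand): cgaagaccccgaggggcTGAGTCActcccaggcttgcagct
The first base of the match lay 154 bases before the RefSeq start of Procr, 135 before that of F3, 95 before that of Anxa2 and 204 before that of F2r. For Procr, Anxa2 and F2r this start differs from the GENCODE start given above. Of the 4 genes with a match, Procr was higher in both Pd1cKO-Tie2 libraries and the others overlapped between genotypes. On both strands, the letters AGGAAG, the core of many ETS factor sites, were in 2 of the 7 windows (35.4% of all windows), GGGCGG, a GC box, in 6 (35.7%), CCACCC, read by KLF factors, in 5 (31.5%) and TATAAA in 3 (13.6%). A match is a run of letters and was not tested as a binding site.

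Vwf, the platelet tether, had the highest mean CPM of the 9 over the 4 libraries. Plat was higher in Pd1fl/fl library 1, however, and Pros1 in Pd1fl/fl library 2. Vwf was at 528 and 514 CPM in Pd1fl/fl and 663 and 777 CPM in Pd1cKO-Tie2. Its mean was 521 ± 10.3 CPM (SD, n = 2) against 720.1 ± 80.2 CPM (SD, n = 2), and the 2 genotypes did not overlap. The log2 fold change was 0.47 (SE 0.14, 95% interval 0.13 to 0.81), which is 1.38-fold, with an edgeR adjusted p of 0.735. DESeq2 gave Vwf an adjusted p of 0.109. Without Pd1cKO-Tie2 library 2 the log2 fold change was 0.35 and the unadjusted p no longer reached 0.05.

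F3, which encodes the starter of coagulation, was held by 11 and 41 reads in Pd1fl/fl and 61 and 19 reads in Pd1cKO-Tie2, or 0.761, 2.88, 2.55 and 1.39 CPM in the same order. The libraries of each genotype differed from each other more than the genotype means did. Its log2 fold change of 0.11 had an interval of -3.12 to 3.34 (edgeR adjusted p = 0.9998), which includes differences of several fold in either direction. With every library thinned to the smallest total the SE of this log2 fold change was 1.29, beside 1.30 on all reads.

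Tfpi, which encodes the inhibitor of that start, was at 202 and 196 CPM in Pd1fl/fl and 151 and 181 CPM in Pd1cKO-Tie2. It was the 1 gene of the 9 with both Pd1cKO-Tie2 libraries below both Pd1fl/fl libraries. The log2 fold change was -0.26 (SE 0.17, interval -0.69 to 0.16), with an edgeR adjusted p of 0.949, and did not pass the test with or without adjustment.

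F2r, which encodes the thrombin receptor PAR1, was at 331 and 266 CPM in Pd1fl/fl and 197 and 266 CPM in Pd1cKO-Tie2. The lower Pd1fl/fl and the higher Pd1cKO-Tie2 library were equal to 3 digits. The fitted log2 fold change was -0.37 (SE 0.21, interval -0.89 to 0.15, edgeR adjusted p = 0.924).

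Procr, which encodes the endothelial protein C receptor, had the largest fitted difference of the 9, with 62.5 and 68.1 CPM in Pd1fl/fl and 129 and 91.6 CPM in Pd1cKO-Tie2. Its mean was 65.3 ± 3.93 CPM (SD, n = 2) against 110.5 ± 26.6 CPM (SD, n = 2), and the highest level was in the deepest library. The log2 fold change was 0.76 (SE 0.24, interval 0.15 to 1.36), which is 1.69-fold, with an edgeR adjusted p of 0.735. The unadjusted p no longer reached 0.05 without Pd1cKO-Tie2 library 1 (log2 fold change 0.49), without Pd1fl/fl library 1 (0.70) or without Pd1fl/fl library 2 (0.82).

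Thbd and Pros1, which encode the other proteins of the protein C system, did not pass the test. Thbd, for thrombomodulin, was at 46.1 and 64.4 CPM in Pd1fl/fl and 53.3 and 35.2 CPM in Pd1cKO-Tie2, a log2 fold change of -0.32 (interval -1.12 to 0.48, edgeR adjusted p = 0.9998). Pros1, for protein S, was at 448 and 519 CPM in Pd1fl/fl and 412 and 475 CPM in Pd1cKO-Tie2, a log2 fold change of -0.13 (interval -0.50 to 0.25, edgeR adjusted p = 0.9998). In both genes the libraries of the genotypes overlapped.

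Plat, which encodes tissue plasminogen activator, was at 555 and 434 CPM in Pd1fl/fl and 654 and 704 CPM in Pd1cKO-Tie2. Its mean was 495 ± 85.9 CPM (SD, n = 2) against 679 ± 35.02 CPM (SD, n = 2), and both Pd1cKO-Tie2 libraries were the higher. The log2 fold change was 0.46 (SE 0.16, interval 0.05 to 0.86), which is 1.37-fold, with an edgeR adjusted p of 0.753. The unadjusted p no longer reached 0.05 without Pd1fl/fl library 2 (log2 fold change 0.29), without Pd1cKO-Tie2 library 1 (0.51) or without Pd1cKO-Tie2 library 2 (0.40).

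Anxa2, which encodes annexin A2, was at 79.7 and 79.9 CPM in Pd1fl/fl and 76.7 and 94.9 CPM in Pd1cKO-Tie2. One Pd1cKO-Tie2 library was below and one above both Pd1fl/fl libraries. Its log2 fold change was 0.10 (interval -0.42 to 0.63, edgeR adjusted p = 0.9998).

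**Figure D3:**
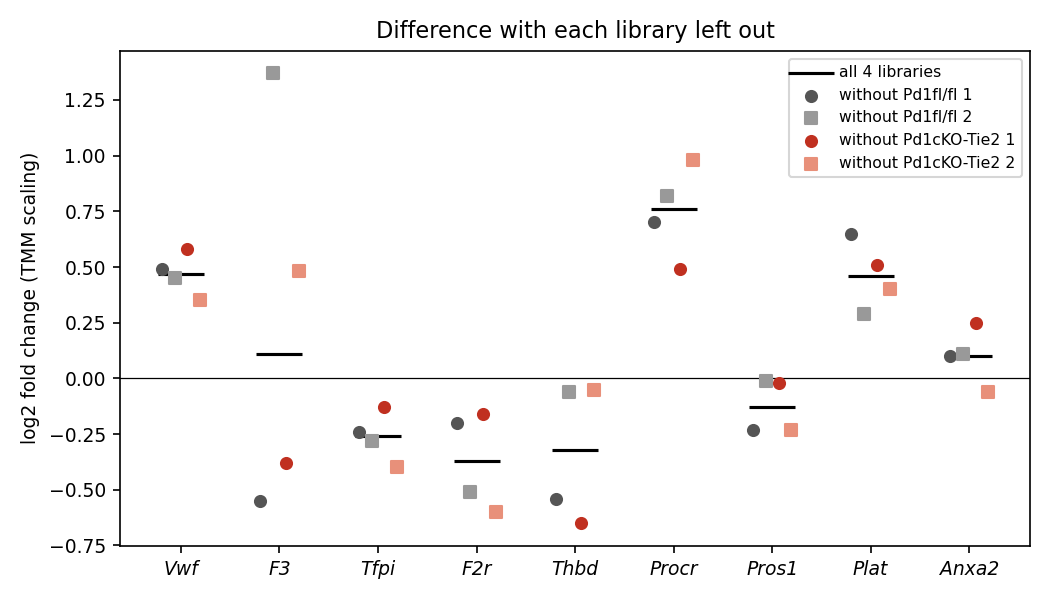
Log2 fold change of each gene with all 4 libraries (black bar) and with each library left out in turn (points). Vwf stays between 0.35 and 0.58, Procr between 0.49 and 0.98 and Plat between 0.29 and 0.65, while F3 runs from -0.55 to 1.37 and Anxa2 from -0.06 to 0.25.

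Because the endothelial markers were also higher in Pd1cKO-Tie2, each gene was set against them on a scale chosen after seeing the data, as reads per 1000 reads on the 14 endothelial markers. Cldn5 alone held 79523 of 197943 and 67773 of 181607 of these reads in Pd1fl/fl, and 156788 of 390746 and 95673 of 236254 in Pd1cKO-Tie2. The study reported less Cldn5 protein in vessels and more Pecam1 and Cdh5 mRNA in brains of Pd1cKO-Tie2 mice. The scale therefore need not measure endothelial content alone. On this scale the median of all tested genes moved by -0.344 (log2), to -0.349. Vwf was at 38.6 and 40.2 reads per 1000 in Pd1fl/fl against 40.6 and 45.0 in Pd1cKO-Tie2, with a log2 fold change of 0.12 (interval -0.18 to 0.42, edgeR adjusted p = 0.771). Plat was at 40.6 and 34.0 against 40.1 and 40.7 reads per 1000, with a log2 fold change of 0.12 (interval -0.22 to 0.45, edgeR adjusted p = 0.809). Procr was at 4.57 and 5.34 against 7.92 and 5.30 reads per 1000, with a log2 fold change of 0.42 (interval -0.25 to 1.08, edgeR adjusted p = 0.609). None of these 3 genes had an unadjusted p of 0.05 or less on this scale, and for Plat and Procr the genotypes overlapped.

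On the same endothelial scale, Tfpi, F2r and Pros1 had an unadjusted edgeR p of 0.05 or less and were lower in Pd1cKO-Tie2, and the same was true of 10% of all tested genes. Tfpi was at 14.8 and 15.4 reads per 1000 in Pd1fl/fl against 9.22 and 10.5 in Pd1cKO-Tie2, with a log2 fold change of -0.61 (SE 0.16, interval -1.01 to -0.22). F2r was at 24.2 and 20.9 against 12.1 and 15.4 reads per 1000, with a log2 fold change of -0.71 (SE 0.18, interval -1.16 to -0.26). Pros1 was at 32.7 and 40.7 against 25.2 and 27.5 reads per 1000, with a log2 fold change of -0.48 (SE 0.15, interval -0.86 to -0.09). The edgeR adjusted p of each was 0.411, so none of the 3 passed adjustment. The distance of these 3 genes from the median of all genes was smaller, since that median itself lay at -0.349. Thbd and Anxa2 did not pass the test on this scale (-0.66, edgeR adjusted p = 0.549, and -0.25, edgeR adjusted p = 0.714). The value of Anxa2 lay above the median of all tested genes, -0.349. F3 overlapped (-0.25, edgeR adjusted p = 0.968).

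**Figure D4:**
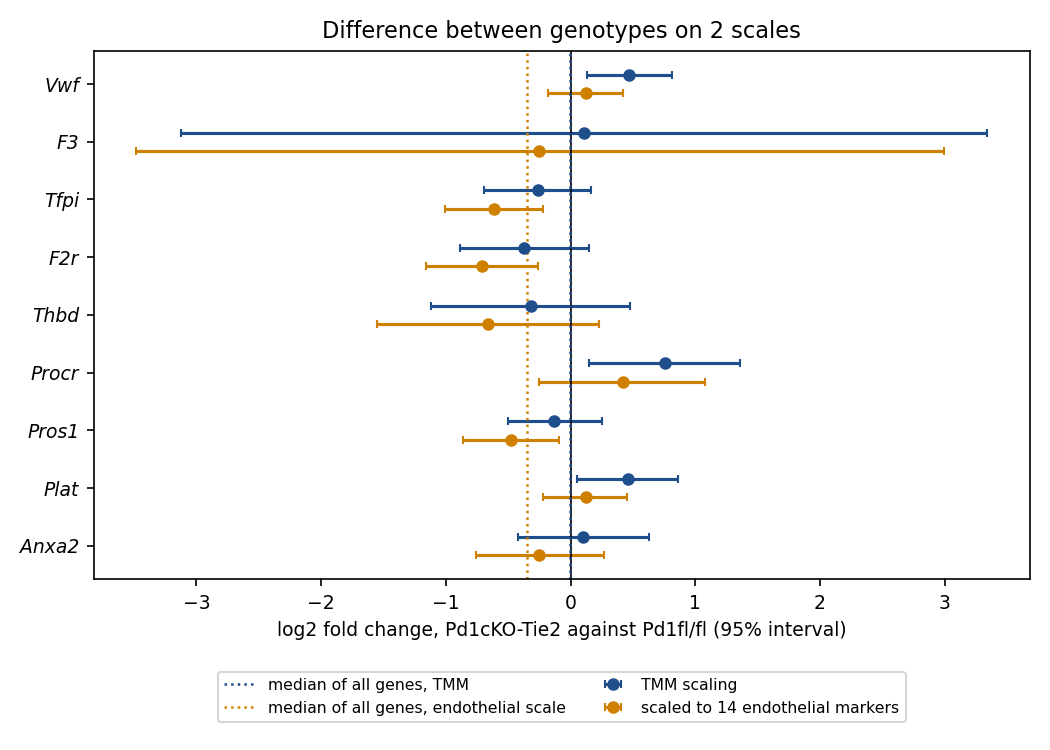
Log2 fold change of each gene, Pd1cKO-Tie2 against Pd1fl/fl, with its 95% interval, under TMM scaling (blue) and scaled to the 14 endothelial markers (orange), with dotted lines at the median of all tested genes on each scale. Intervals of Vwf, Procr and Plat lie above 0 under TMM scaling only, and those of Tfpi, F2r and Pros1 lie below 0 on the endothelial scale only.

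The rest of the coagulation and fibrinolysis system was represented by 54 further genes, of which 37 were listed and 31 tested. Of the tested genes 14 were higher and 17 lower in Pd1cKO-Tie2 on average, with a median log2 fold change of -0.08 beside -0.004 over all tested genes. The study's criterion was passed by 2 of 31, Mertk and Proz, both lower in Pd1cKO-Tie2, against 4.02% of all tested genes. A p of 0.05 or less was reached by 3 of 31, these and Axl, against 6.39% of all tested genes, and counts this small are near those shares. The genes not listed included those of fibrinogen (Fga, Fgb, Fgg), factor VII (F7), protein C (Proc), antithrombin (Serpinc1) and plasminogen (Plg), which are known as products of the liver.

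Mertk, a receptor tyrosine kinase that binds protein S and Gas6, was at 21.4 and 21.2 CPM in Pd1fl/fl and 7.56 and 6.73 CPM in Pd1cKO-Tie2. Its log2 fold change was -1.58 (SE 0.40), with an edgeR adjusted p of 0.735. Axl, a receptor of the same family, was at 138 and 102 CPM against 74.7 and 65.6 CPM, with a log2 fold change of -0.78 (SE 0.23, edgeR adjusted p = 0.735). Both Pd1cKO-Tie2 libraries were thus below both Pd1fl/fl libraries for both receptors. Mertk is also known from macrophages, whose markers were lower in Pd1cKO-Tie2 (median log2 fold change of the 8 microglia and macrophage markers -0.86), as were 8 of 10 radial glia and astrocyte markers (median -0.76). The part of those cells in the difference was not tested. Gas6, a ligand of these receptors, was at 46.8 and 45.3 against 47.2 and 60.7 CPM (log2 fold change 0.23, edgeR adjusted p = 0.9998). Both Pd1cKO-Tie2 libraries were thus above both Pd1fl/fl libraries for Gas6, by little in library 1. Proz, which encodes protein Z, a cofactor for the inhibition of factor X, held 12 and 51 reads in Pd1fl/fl and 0 in both Pd1cKO-Tie2 libraries (edgeR adjusted p = 0.735). Set against a floor of 3 counts in each Pd1cKO-Tie2 library, Proz was 12.8-fold higher in the Pd1fl/fl mean and 4.82-fold higher in the lower Pd1fl/fl library. Neither value includes the counting error of the Pd1fl/fl reads, so they are not lower limits of the difference. The edgeR interval of the log2 fold change was -14.3 to -2.1. Its upper end is a Pd1cKO-Tie2 level of 0.234 times that of Pd1fl/fl, a smaller difference than either value.

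In the remaining role groups 0 genes passed a p of 0.05 in edgeR. Among the coagulation factors, F13a1, which encodes the subunit of factor XIII that cross-links fibrin, was at 67.05 and 38.4 CPM in Pd1fl/fl and 17.9 and 59.9 CPM in Pd1cKO-Tie2. F5 was at 15.5 and 8.50 against 3.72 and 12.9 CPM, and F10 at 4.15 and 12.1 against 4.76 and 4.17 CPM. All 3 overlapped between genotypes. Mcfd2 and Lman1, whose products carry factors V and VIII out of the endoplasmic reticulum, were at 279.8 and 199 against 261 and 282 CPM and at 185 and 114 against 133 and 140.3 CPM. Gp5, of the platelet receptor for von Willebrand factor, was at 13.6 and 32.6 against 39.6 and 6.58 CPM.

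Of the thrombin receptor family, F2rl3, for PAR4, was at 5.19 and 8.86 against 6.81 and 6.00 CPM. F2rl2, for PAR3, was at 5.81 and 3.51 against 1.71 and 2.49 CPM (log2 fold change -1.15, edgeR adjusted p = 0.991). Both are far below the 197 to 331 CPM of F2r in the same libraries, on a scale that does not account for length. In the plasminogen system, Serpine2, which encodes protease nexin 1, was at 1124.8 and 911 against 1153.8 and 815 CPM, a log2 fold change of -0.05. Plaur, for the urokinase receptor, was at 109 and 111 against 89.8 and 119 CPM, and Plgrkt, for a plasminogen receptor, at 50.9 and 42.2 against 49.96 and 36.4 CPM. All 3 overlapped between genotypes.

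In the vitamin K cycle, which serves the carboxylation of protein S and several clotting factors, the carboxylase gene Ggcx was at 8.30 and 10.5 against 14.3 and 9.36 CPM. Vkorc1l1, for a vitamin K epoxide reductase, was at 16.1 and 10.3 against 10.03 and 7.17 CPM. Of the genes by which endothelium restrains platelets, Entpd1, for an ectonucleotidase that breaks down ADP, was at 102 and 104 against 67.9 and 141 CPM, and Ptgis, for prostacyclin synthase, at 74.3 and 78.5 against 89.7 and 71.5 CPM. Nos3, for endothelial nitric oxide synthase, was at 56.7 and 65.3 against 75.8 and 94.0 CPM, with a log2 fold change of 0.47 (edgeR adjusted p = 0.865). Nos3 shares 1334 exon bases with genes on the other strand. It was the 1 gene of these 3 with both Pd1cKO-Tie2 libraries above both Pd1fl/fl libraries.

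**Figure D5:**
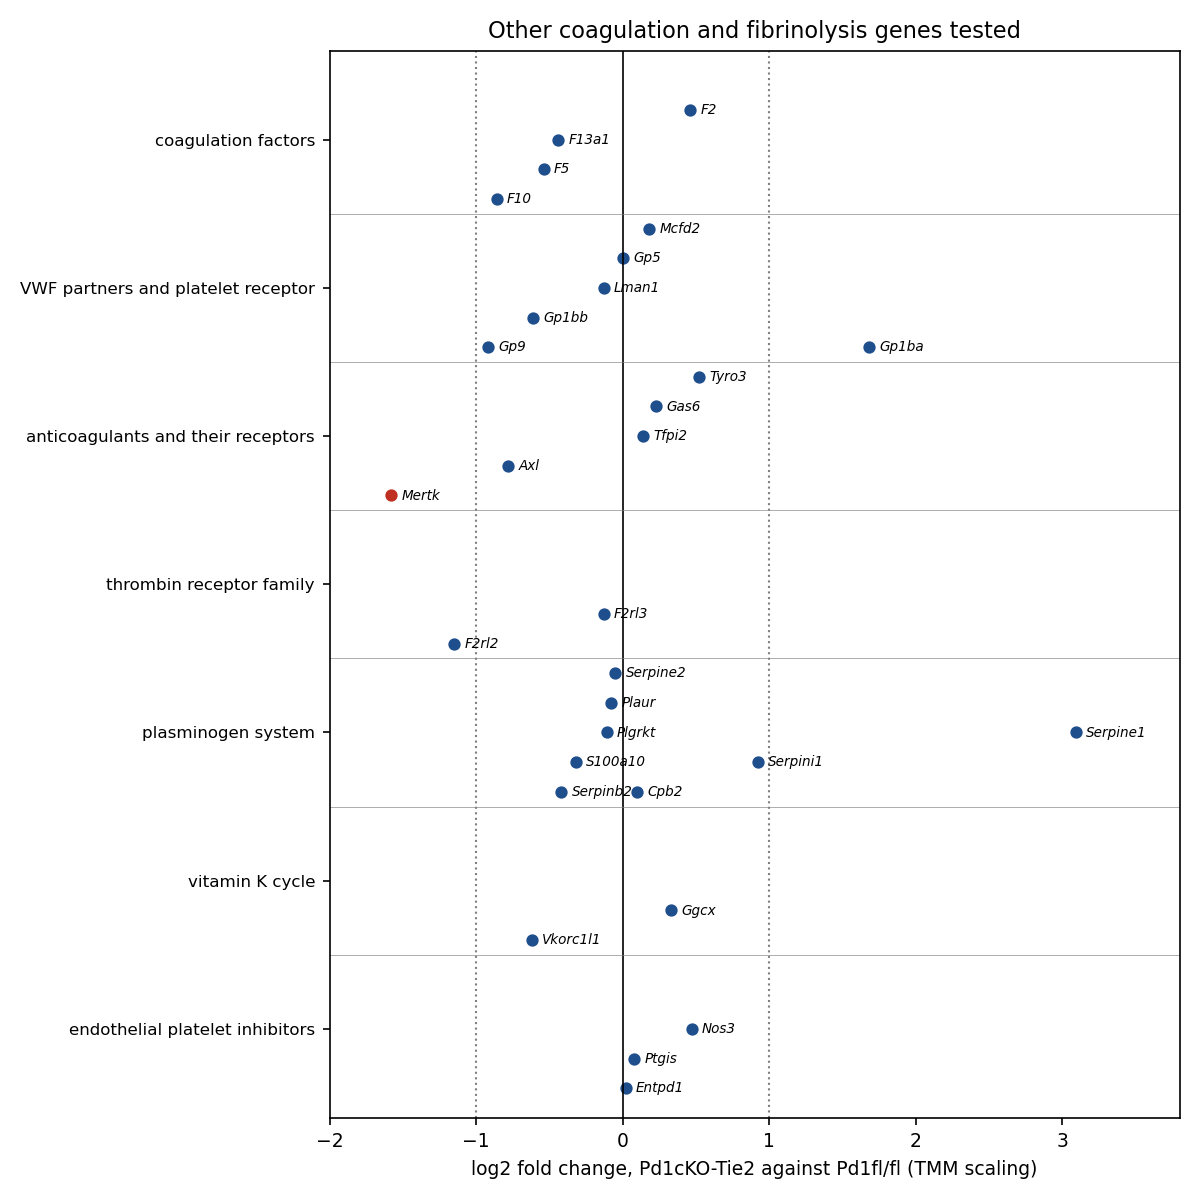
Log2 fold change under TMM scaling, Pd1cKO-Tie2 against Pd1fl/fl, of the other tested coagulation and fibrinolysis genes by role, with dotted lines at a 2-fold difference. Mertk (red) is the 1 plotted gene past the study's criterion, and Proz is not drawn because both its Pd1cKO-Tie2 libraries are at 0.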

How the data were processed

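The authors deposited 4 tables, each setting 1 Pd1cKO-Tie2 beside 1 Pd1fl/fl library, with raw read counts per gene. The submitters' processing notes name Bowtie2 2.2.3, TopHat2 2.0.12, HTSeq 0.6.0 and the mm9 build, whereas 90.1% of gene positions in the tables equal GENCODE M21 (GRCm38). The tables' scaled values, and the authors' fold changes and p-values for each pair, were not used. The 4 tables were joined by gene identifier, 10 lines that held no gene were skipped, and a gene unlisted for a library, which can hold at most 4 counts, was set to 0. One Pd1cKO-Tie2 column, called library 2 here, bears a number found on no sample and is known by genotype only.

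Counts were tested with edgeR 4.0.16 (R 4.3.3): filterByExpr by genotype, TMM scaling, the quasi-likelihood F test and Benjamini-Hochberg adjustment over 15909 genes. The common coefficient of biological variation came to 0.61. DESeq2 1.42.0, limma 3.58.1 (voom), other scalings and filters, thinning and leaving out each library were alternatives, and scaling to endothelial markers was added after seeing the data. The edgeR fit was tested on simulated counts whose changes were larger than any fitted for the 9 genes. That test does not show how well smaller differences are found. Named genes are the 9 members and, of each role group, those past the study's criterion and the 3 most abundant. Axl is among the latter. The 6 listed genes too low to be tested are named as well, with their values, and were singled out after their counts were seen. Of the marker lists, sums and counts are given. Pecam1 and Cdh5 are named as examples, and Gkn3 and Slc22a6 because they were not listed. Rgs5, Acta2, Tagln, Myh11 and Cldn5 are named to show what makes up a sum, and were singled out after their counts were seen. The members and lists were chosen with earlier results of these data known.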

Additional observations from a re-analysis of the deposited data

How the results depend on the processing

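Under DESeq2 on the filtered genes and on all genes, limma-voom, RLE, upper quartile and library size scaling, no filter, a minimum of 10 counts in every library, and thinning, each of the 9 genes kept its direction and its side of a p of 0.05. Scaling to the endothelial markers, chosen after seeing the data, moved Vwf to 0.12, Procr to 0.42 and Plat to 0.12 (log2), none with an unadjusted p of 0.05 or less. On that scale Tfpi at -0.61, F2r at -0.71 and Pros1 at -0.48 passed a p of 0.05, F3 and Anxa2 both turned to -0.25, and 981 in place of 640 of all tested genes passed the study's criterion. With 1 library left out, Vwf ran from 0.35 to 0.58, Procr from 0.49 to 0.98 and Plat from 0.29 to 0.65, and 1 to 2 of the 9 genes in place of 3 had a p of 0.05 or less. F3 ran from -0.55 to 1.37 and Anxa2 from -0.06 to 0.25, and the sign turned for F3 without Pd1fl/fl library 1 (-0.55) and without Pd1cKO-Tie2 library 1 (-0.38), and for Anxa2 without Pd1cKO-Tie2 library 2 (-0.06). The cause was not tested. In these fits the lone library of a genotype is assumed to vary like the other genotype's. DESeq2 called 116 genes at an adjusted p under 0.05, where edgeR called 0. No paired analysis was possible because the genotypes share fewer than 2 replicate numbers in the labels. F3 rested on 11 to 61 reads a library, and its SE was 1.29 after thinning to the smallest total, beside 1.30.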

Other observations

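The 6 other coagulation and fibrinolysis genes that were listed but too low to be tested had reads in 1 or 2 of the 4 libraries each. F8, for factor VIII, held 38 reads in Pd1fl/fl library 2 and 0 in the other libraries, and F9, for factor IX, held 33 reads in Pd1cKO-Tie2 library 2 alone. Plau, for urokinase, held 39 reads in Pd1fl/fl library 2 and 1 read in Pd1cKO-Tie2 library 1. F2rl1, for PAR2, held 16 reads in Pd1cKO-Tie2 library 2 alone. Serpind1, for heparin cofactor II, held 6 reads in each Pd1cKO-Tie2 library. Vkorc1, for vitamin K epoxide reductase, held 3 reads in Pd1fl/fl library 1 and 12 in Pd1cKO-Tie2 library 1. Of its 840 exon bases, 401 are shared with Gm21974 on the same strand. What this overlap did to its count was not tested, so the count need not show its level. A listed 0 can stand for up to 4 reads where a gene was not listed for that library.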
